A study of Caenorhabditis elegans with 8 samples.

Results

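The genes described here build and run the secretory pathway of the nematode Caenorhabditis elegans, from entry into the endoplasmic reticulum (ER) to the coats that move cargo between the ER and the Golgi. The set was a list of 39 gene names, with no condition on measured values. All 39 had a row among the 46093 genes of the deposited count table, and 38 had enough counts to be tested with 12375 genes in all. The samples were whole day 1 adults grown at 20 °C, in batches of about 1000 synchronized worms collected after 72 h on bacterial food. There were 4 libraries of the wild-type laboratory strain N2 and 4 of a strain labelled atf-6, for which no allele is named. ATF-6 is an ER membrane-anchored transcription factor of the unfolded protein response. The comparison asks whether the secretory machinery is transcribed at another level in the labelled strain. The series title names longevity and calcium signalling between the ER and mitochondria.

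Proteins bound for secretion enter the ER through the SEC-61 channel, helped by the signal recognition particle and by the translocon-associated protein complex (TRAP). Signal peptidase cuts off the signal peptide, and oligosaccharyltransferase (OST) attaches a preformed sugar chain. Misfolded glycoproteins are re-tagged by UDP-glucose:glycoprotein glucosyltransferase, and proteins that do not fold are withdrawn for ER-associated degradation (ERAD). Folded cargo leaves in vesicles with the COPII coat, and the COPI coat returns escaped ER proteins from the Golgi. In yeast and mammals, many of these genes are targets of the unfolded protein response.

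Total estimated counts were 12664222 to 21698298 per library. The 39 genes together took 0.939% to 0.989% of them. The atf-6 transcript itself was at 10.8 to 13.2 CPM (counts divided by a library size adjusted for composition) in N2 and at 14.1 to 16.04 CPM in the libraries labelled atf-6. The log2 fold change was 0.28 with an SE of 0.0911 (edgeR adjusted p = 0.346). This level covers the whole transcript and, with no allele named, is no check of the strain label. Marker genes of intestine, epidermis, muscle, neurons, oocytes and yolk were all detected, and their summed levels overlapped between the strains. The sum over 5 sperm genes did not overlap, at 3.57 to 6.50 CPM in N2 and 8.47 to 12.1 CPM in atf-6. Of these genes, 4 were higher in every atf-6 library, on 154 to 402 counts over all libraries. spe-9 overlapped between the strains, with 28 counts in all, and was not tested. In such whole-animal RNA, fewer cells of a type and less RNA per cell cannot be told apart.

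None of the secretory genes passed the test for a difference between the strains. With edgeR's quasi-likelihood test 0 of 38 were higher and 0 lower at an adjusted p of 0.05, where 0.711% and 0.105% of all tested genes were called in these directions. The count was also 0 with DESeq2, which called 1.24% of all genes higher and 0.235% lower. It was 0 with limma-voom, which called 83 of all tested genes higher and 13 lower. With edgeR given 1 surrogate variable it was 0 too, where 2.15% and 0.501% were called. At an unadjusted p under 0.05 there were 0 members with edgeR, against 7% of all tested genes. There were also 0 with limma-voom, for which the share of all genes was not counted. There was 1 with DESeq2 (ribo-1, adjusted p = 0.209), against 4.31% of all genes, and there were 4 with 1 surrogate variable, against 14.9%. The median log2 fold change of the members, atf-6 minus wild type, was -0.03 (all tested genes 0.00191), and 36 of 38 lay within 0.1 of zero. The lowest edgeR adjusted p of any member was 0.848.

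The measurements were precise enough to limit how large a difference could have been missed. The 95% interval of the log2 fold change lay inside a 1.25-fold change either way for 36 of 38 members. This held for 42.4% of all tested genes, and for 82.7% of the 3333 genes expressed at or above the level of the lowest tested member. Inside a 1.5-fold change lay 37 of 38 members, against 71.2% of all tested genes and 98.7% of those at member levels. The exceptions at 1.25-fold were dad-1 and tfg-1, and dad-1 was also the exception at 1.5-fold. The members had a negative log2 fold change in 27 of 38 cases, against 49.3% of all tested genes, and this count changed with the scaling. It was 20 of 38 under upper-quartile scaling, against 41.5% of all tested genes, and 28 of 38 under RLE scaling, against 52.6%. The share of members was above that of all tested genes under each scaling, and this difference was not tested.

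**Figure D1:**
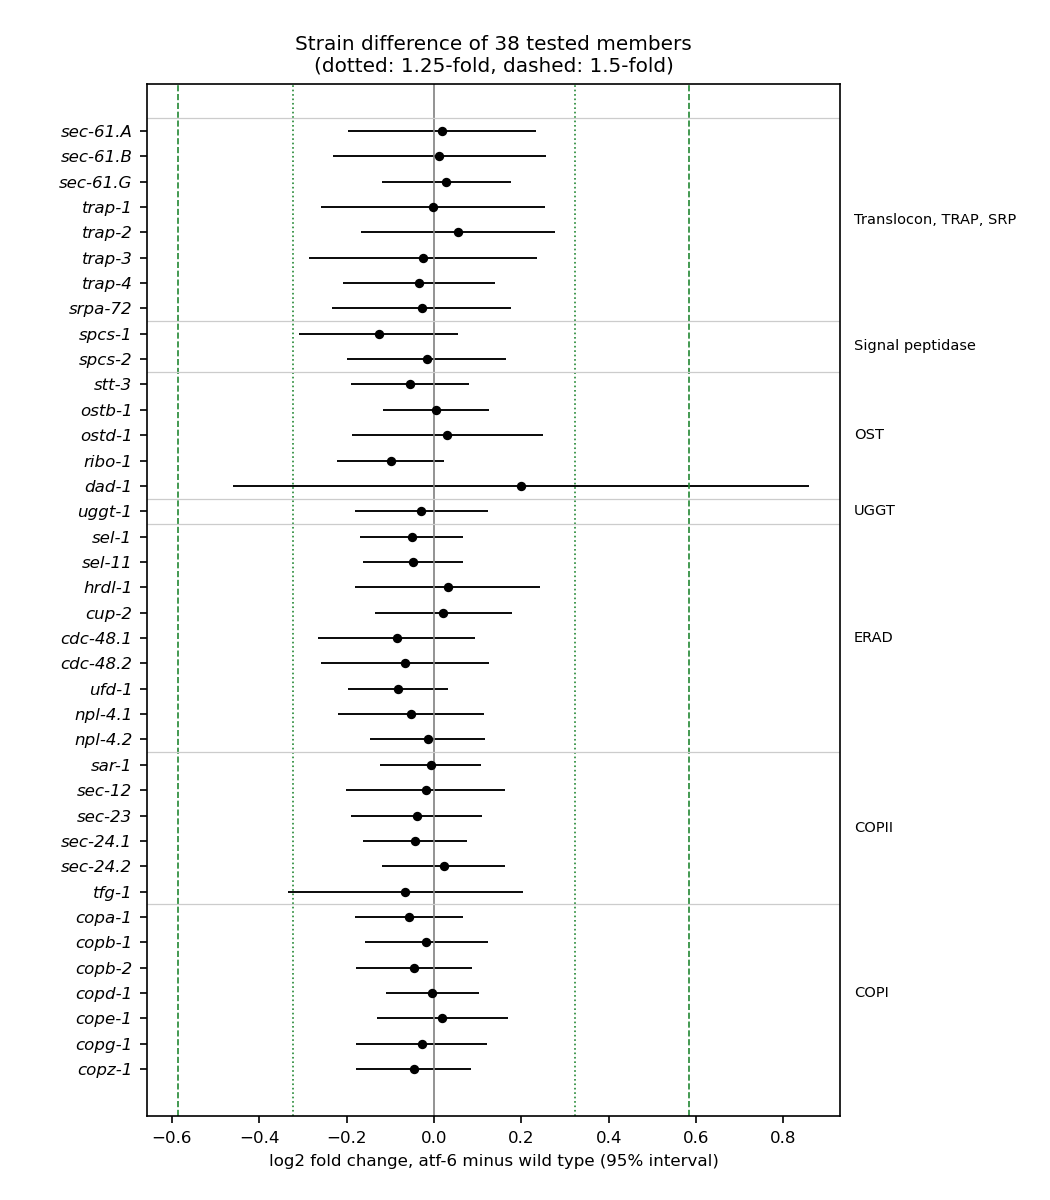
Log2 fold change (atf-6 minus wild type, x axis) of the 38 tested members with 95% intervals from edgeR, grouped by step of the pathway; dotted and dashed green lines mark 1.25-fold and 1.5-fold changes. The intervals of 36 members stay between the dotted lines, and that of dad-1 crosses a dashed line.

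The entry machinery held the most abundant transcripts of the pathway. Levels between genes are compared as CPM per kilobase of effective transcript length, averaged over the 8 libraries. The small channel subunit sec-61.G was highest at 1762 CPM per kilobase, followed by the other small subunit sec-61.B at 1011. TRAP subunit trap-4 (829) and the pore-forming subunit sec-61.A (810.3) came next and overlapped across libraries. The other TRAP subunits trap-3, trap-1 and trap-2 had levels of 645, 543 and 290.3 CPM per kilobase. The signal recognition particle subunit srpa-72 was far lower at 49.4 CPM per kilobase. Short transcripts make this scale less certain: sec-61.G, sec-61.B, the signal peptidase subunit spcs-1 and the OST subunit dad-1 are the 4 members with an effective length under 300 bases.

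**Figure D2:**
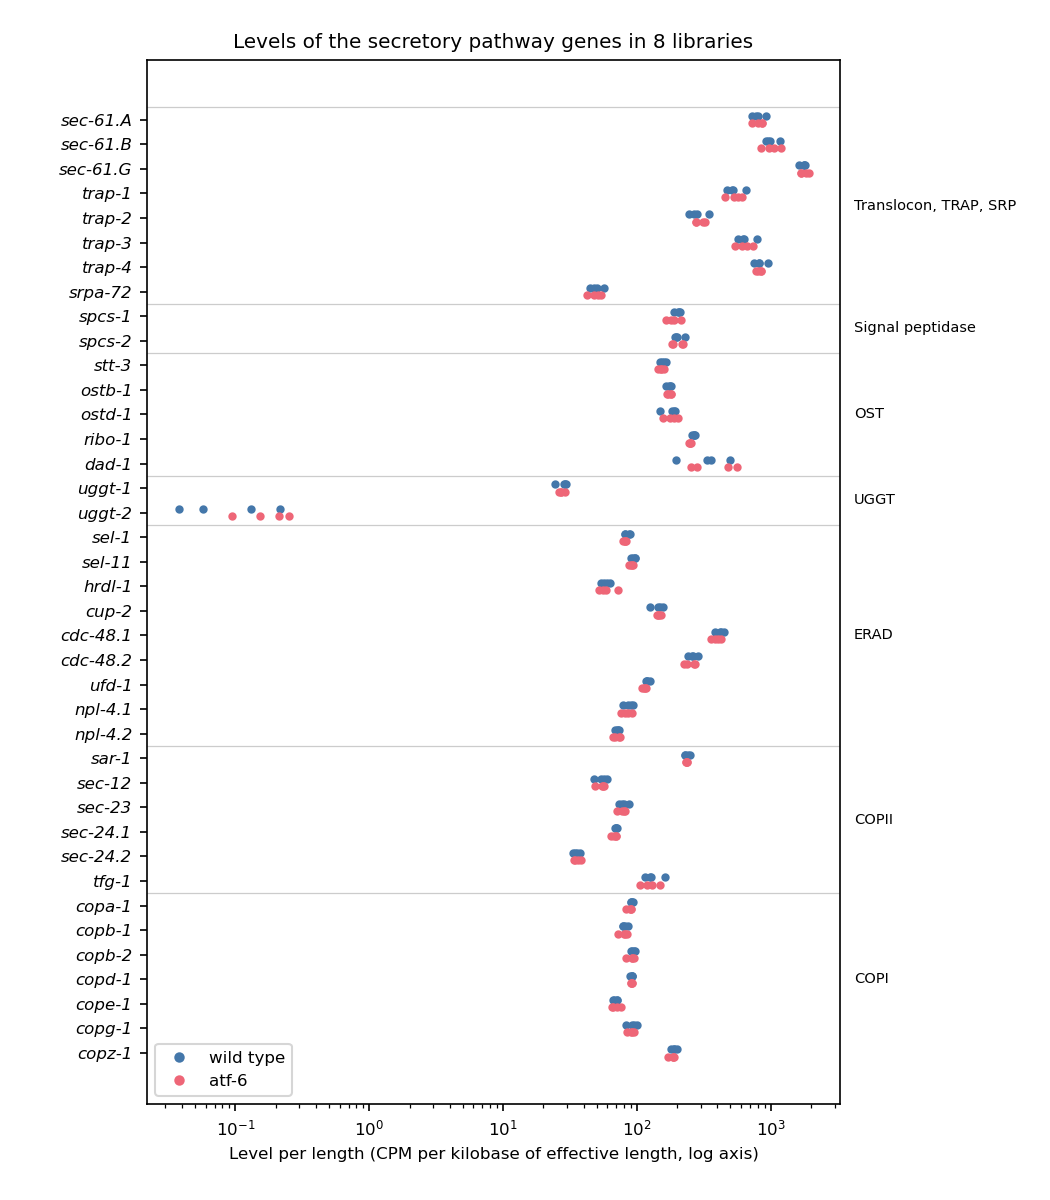
Level per length (CPM per kilobase of effective transcript length, log axis) of the 39 genes, with a point per library, 4 wild-type in blue and 4 atf-6 in red. Channel subunit sec-61.G sits highest at 1762, uggt-2 lowest at 0.144, and wild-type and atf-6 points lie close together on this scale.

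By replicate, sec-61.G measured 313, 342, 347 and 343 CPM in N2 and 355, 369, 324 and 323 CPM in atf-6. The groups overlapped, with replicate 1 low in wild type and replicates 1 and 2 high in atf-6. Its log2 fold change was 0.03 (95% interval -0.12 to 0.18). For srpa-72 the values were 85.6, 90.4, 107.8 and 95.9 CPM in N2 and 103, 98.2, 80.6 and 91.0 CPM in atf-6, again overlapping (a log2 fold change of -0.03, 95% interval -0.23 to 0.18). The gene lies on chromosome II (2787481 to 2793943, plus strand, build WBcel235), 4397 bases from F08D12.2 on the same strand. F08D12.2 was among the genes called lower in atf-6 (log2 fold change -1.84, edgeR adjusted p = 0.00220).

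A pair of entry genes lies side by side. Channel gene sec-61.B (chromosome IV, 2388185 to 2388675, minus strand) and TRAP gene trap-3 (2389445 to 2390259, plus strand) are transcribed away from each other with 769 bases between them. Their CPM values followed each other. sec-61.B was at 163, 173, 208 and 168 CPM in N2 and 212, 186, 150.4 and 171 CPM in atf-6. trap-3 was at 306, 334, 429 and 340.5 CPM in N2 and 399, 362, 293 and 331 CPM in atf-6. For both genes, wild-type replicate 3 and atf-6 replicate 1 were the highest 2 libraries and atf-6 replicate 3 was the lowest. The same held for trap-1 on chromosome I and srpa-72 on chromosome II, so it is not particular to the neighbouring pair.

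The genes of the entry step lay on the same side of their mean in 5 libraries, though their order within these differed. All 8 of them (the 3 channel subunits, the 4 TRAP subunits and srpa-72) were above their own mean in wild-type replicate 3 and in atf-6 replicates 1 and 2. All 8 were below it in wild-type replicate 1 and atf-6 replicate 3. This pattern was noticed in the data and is given as a description. It held for 13 of 38 members, for 16.2% of all tested genes and for 31.4% of tested genes at member levels. Over wild-type replicates 1 to 4 the median deviation of the 8 genes on the log2 scale was -0.15, -0.03, 0.22 and -0.04. Over atf-6 replicates 1 to 4 it was 0.12, 0.07, -0.19 and -0.05. It therefore crosses the strains, and libraries of one strain lay at both ends. Summed reads of the transcript files, without the rescaling for length, also put all 8 genes above their mean in these 3 libraries and 0 of 8 in this pair.

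Some tissue marker sums moved with this pattern in whole or in part, though not all of their single genes did. The summed level of 4 muscle genes was 2898, 3460.1, 4254 and 3331 CPM in N2 and 4216, 3747, 3186 and 3412 CPM in atf-6. Its highest 3 libraries were the 3 in which all entry genes were above their mean, and its lowest 2 were the pair in which all were below. Of its genes, unc-54 and unc-15 had these highest 3, and unc-27 and myo-3 did not. The sum of 4 epidermal genes ran from 1399 to 2237 CPM in N2 and from 1581 to 2266 CPM in atf-6, with the same highest 3. Its lowest 2 were wild-type replicates 1 (1399 CPM) and 4 (1533 CPM). This sum was nearly all col-19 (2221 CPM in wild-type replicate 3), while elt-3 was highest in atf-6 replicate 3 (18.7 CPM). The sum of 3 vitellogenin genes ran from 61319 to 80445 CPM and from 61016 to 76048 CPM, with the highest 3 and lowest 2 of the muscle sum. Of its genes, vit-2 and vit-6 had these too. For vit-5, wild-type replicate 4 (18413 CPM) was among the highest 3 and atf-6 replicate 1 (17931 CPM) was not. The sum of 5 neuronal genes had the same highest 3, at 204 to 228 CPM, but its lowest 2 were atf-6 replicates 3 (176 CPM) and 4 (188 CPM). Of its genes, snb-1, egl-3 and unc-64 had these highest 3, and rab-3 and unc-13 did not. The other sums departed from the pattern in their highest 3. Among the highest 3 for 5 intestinal genes was atf-6 replicate 4 (916 CPM) and not atf-6 replicate 2 (900.03 CPM). The lowest 2 of this sum, wild-type replicate 1 (818 CPM) and atf-6 replicate 3 (850 CPM), were those of the muscle sum. Of the 5 genes, act-5 had the highest 3 and lowest 2 of the muscle sum, and the others did not. For pept-1, the highest 3 of the muscle sum were instead the lowest 3 libraries. For 6 oocyte and germline genes wild-type replicate 2 (4195 CPM) was among the highest 3 and atf-6 replicate 4 (3809 CPM) among the lowest 2. The part of these markers in the levels of the entry genes was not tested.

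**Figure D3:**
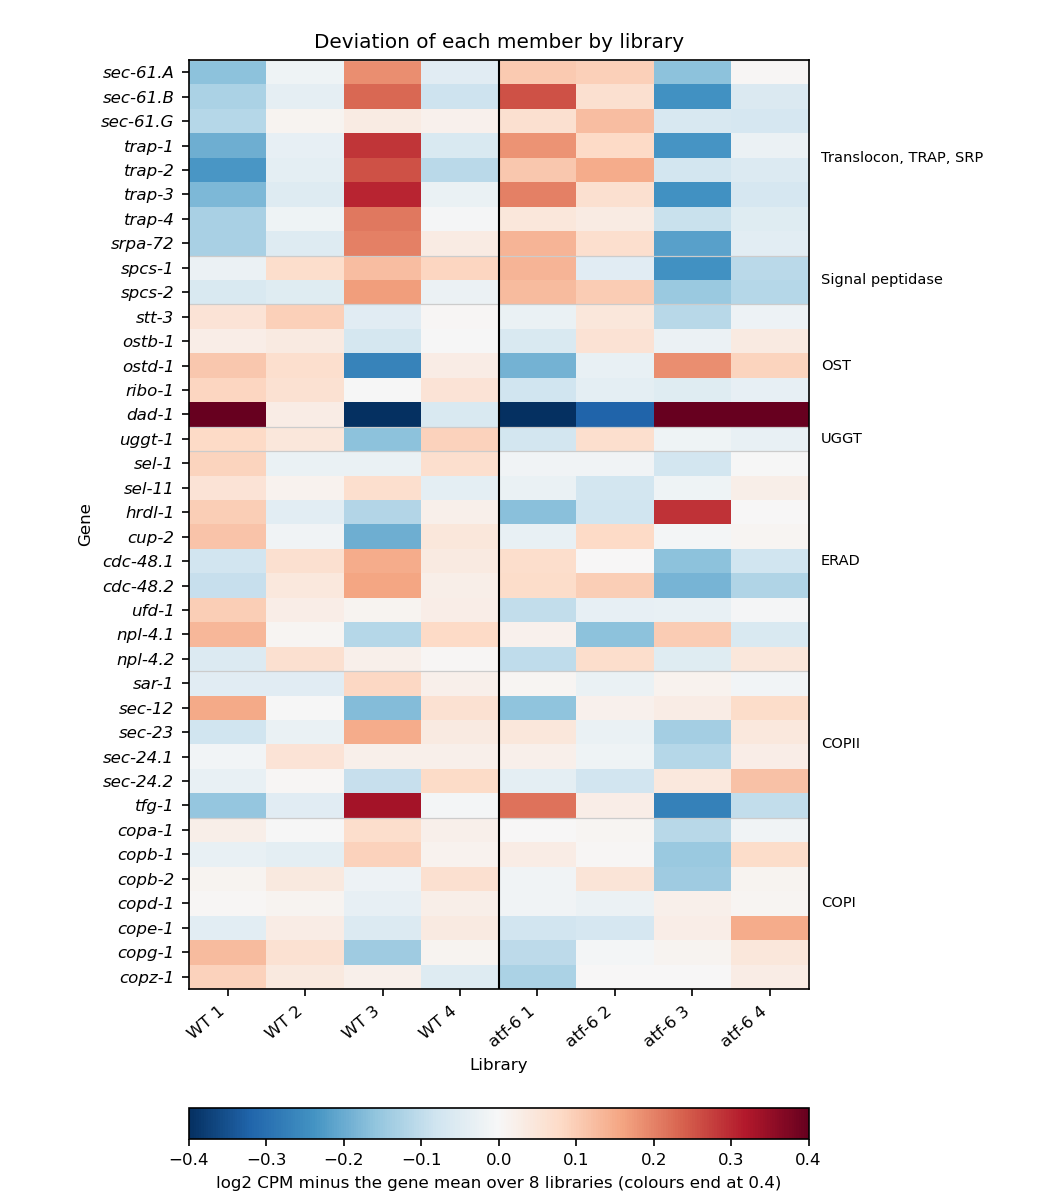
Deviation of log2 CPM from the gene's own mean over 8 libraries (red above, blue below, colours end at 0.4) for the 38 tested members, with wild-type libraries left of the black line. The entry genes at the top are red in wild-type replicate 3 and atf-6 replicates 1 and 2, while dad-1 shows the opposite colours with deviations beyond the scale.

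A fit that leaves out replicate 3 of both strains was added after the pattern was seen. It removes libraries in which the entry genes were high in wild type and low in atf-6, which by construction raises their log2 fold changes. In it 0 members passed, and 3 of 38 (trap-2, trap-1 and sec-61.B) reached an unadjusted p under 0.05, against 8.56% of all tested genes. They had log2 fold changes of 0.19, 0.18 and 0.17 (edgeR adjusted p = 0.464, 0.515 and 0.576). With all 8 libraries, trap-2 measured 133, 152, 186 and 145 CPM in N2 and 168, 173, 148 and 150.4 CPM in atf-6 (the log2 fold change was 0.05, 95% interval -0.17 to 0.28). The TRAP subunit trap-1 measured 395, 442, 552 and 434 CPM in N2 and 513, 479, 384 and 446 CPM in atf-6. For both, wild-type replicate 3 was the highest library.

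The signal peptidase subunits among the members are the accessory ones spcs-1 and spcs-2, at 195 and 203 CPM per kilobase. The further subunits sec-11 and spcs-3, at 272 and 165 CPM per kilobase, were counted with the other translocation genes below. spcs-1 was at 56.8, 60.6, 62.9 and 61.3 CPM in N2 and 63.5, 56.0, 48.7 and 53.5 CPM in atf-6. Replicate 1 of atf-6 was the highest of all 8, and the other 3 atf-6 libraries lay below all of wild type. Its log2 fold change, -0.13 (with SE 0.0823 and edgeR adjusted p = 0.868), was the most negative of all members, and without atf-6 replicate 1 it was -0.20 (adjusted p = 0.504). spcs-2 was at 95.9, 96.6, 112 and 98.4 CPM in N2 and 109, 107, 90.2 and 92.4 CPM in atf-6, overlapping throughout (log2 fold change -0.02).

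Among the 5 OST subunits, ribo-1 was lower in every atf-6 library without passing the test, and dad-1 varied too much to give a direction. ribo-1 (ribophorin I; chromosome IV, 6910683 to 6912865, plus strand) measured 446, 438, 419 and 436 CPM in N2 and 397, 409, 406 and 411 CPM in atf-6. Every atf-6 library lay below every wild-type library, with means of 435 ± 11.3 and 406 ± 5.88 CPM (SD, n = 4). The log2 fold change was -0.10 (SE 0.0551, 95% interval -0.22 to 0.02) and missed the threshold (edgeR adjusted p = 0.848). Its direction was negative under all 18 alternatives run, and its lowest adjusted p was 0.0897, with 1 surrogate variable as a covariate. ribo-1 and the ERAD gene ufd-1 were the 2 members with groups that did not overlap, both lower in atf-6. That was true of 2.02% of all tested genes in this direction, and of 3.6% of those at member levels. In the other direction it was 0 members and 3.77% of all tested genes. The sum of sperm genes given above also did not overlap between the strains, and its part in these values was not tested.

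dad-1 (chromosome I, 6553481 to 6554290, minus strand), the small OST subunit named as a defender against cell death, varied more than any other tested member. It was at 114, 82.0, 44.7 and 76.9 CPM in N2 and 58.0, 64.2, 129 and 111 CPM in atf-6, a 2.89-fold range over the 8 libraries. Its SD on the log2 scale exceeded that of 97.2% of all tested genes and of 99.8% of those at member levels. The 3 libraries with the highest median deviation of the entry genes were the lowest for dad-1. The 2 with the lowest median deviation were the highest for dad-1, though they were not the lowest 2 for every entry gene. The muscle and vitellogenin sums thus ran opposite to dad-1, and their part in its spread was not tested. The strain means of 79.4 ± 28.3 and 90.7 ± 35.0 CPM (SD, n = 4) did not differ beyond this spread (log2 fold change 0.20, SE 0.298). The value was -0.02 without atf-6 replicate 3, 0.42 without wild-type replicate 1 and -0.21 without both libraries numbered 3, so no direction can be given.

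The other OST subunits were steadier. The catalytic subunit stt-3, with the lowest level per length of the complex at 154 CPM per kilobase, was at 374, 385, 349 and 361 CPM in N2 and 354, 371, 334 and 355 CPM in atf-6. Its groups overlapped, with atf-6 replicate 3 lowest (log2 fold change -0.06, 95% interval -0.19 to 0.08). ostb-1 spanned 1.09-fold over the 8 libraries. ostd-1 (ribophorin II) spanned 1.37-fold, and like dad-1 it was lowest in wild-type replicate 3 (112 CPM) and highest in atf-6 replicate 3 (154 CPM). All 5 OST genes were below their own mean in wild-type replicate 3 and atf-6 replicate 1, where all 8 entry genes were above theirs. Of all tested genes, 48.3% and 50.5% were above their mean in these libraries. The OST deviations in wild-type replicate 3 ran from -0.00253 (ribo-1) to -0.837 (dad-1) on the log2 scale. The share of all tested genes below their mean in both libraries was not counted.

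**Figure D4:**
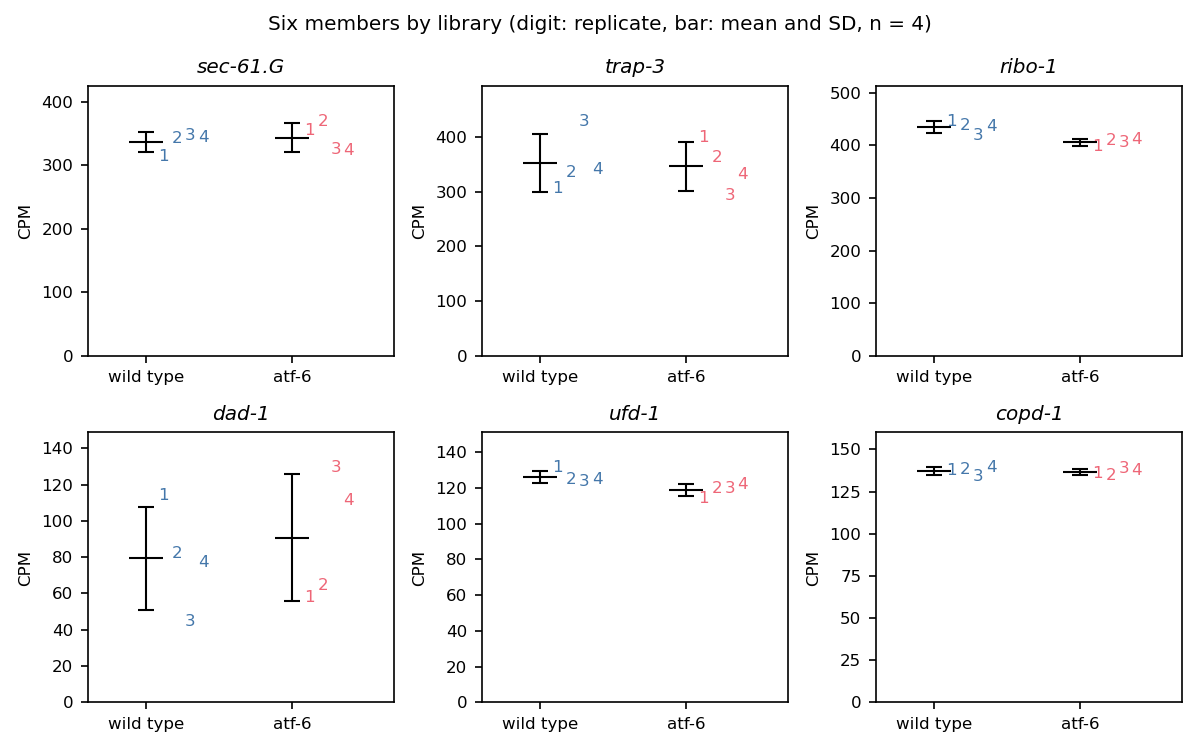
CPM (y axes from 0) of 6 members in each library, with digits for the replicate number, and the mean with its SD (n = 4) as a black bar per strain. The ribo-1 and ufd-1 digits do not overlap between strains, dad-1 spreads from 44.7 to 129, and copd-1 stays between 134 and 139.

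The glucosyltransferase that re-tags misfolded glycoproteins came almost wholly from uggt-1. uggt-1 was at 124, 121.02, 105 and 125 CPM in N2 and 111, 123, 116 and 115 CPM in atf-6, overlapping, with wild-type replicate 3 lowest (log2 fold change -0.03, 95% interval -0.18 to 0.12). uggt-2 was at 0.531, 0.141, 0.319 and 0.0921 CPM in N2 and 0.515, 0.233, 0.622 and 0.374 CPM in atf-6, also overlapping. It gave 48 counts over all 8 libraries and was the member left out of the test for low counts. Its share of the pair's transcript abundance was 0.390% ± 0.268 in wild type and 0.657% ± 0.255 in atf-6 (SD, n = 4). The gene overlaps hsp-70 on the other strand, and the sources used here do not state whether reads were counted by strand.

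In ERAD, the AAA ATPase that pulls proteins out of the ER membrane dominated. Its 2 genes, cdc-48.1 and cdc-48.2, had 406 and 257 CPM per kilobase, above every other gene of this step. cdc-48.1 was at 1007, 1109, 1178 and 1088 CPM in N2 and 1115, 1063, 947 and 1005 CPM in atf-6. cdc-48.2 was at 596, 654, 709 and 645 CPM in N2 and 668, 679.8, 558 and 584 CPM in atf-6. Both were highest in wild-type replicate 3 and lowest in atf-6 replicate 3, and neither separated the strains (log2 fold changes -0.09 and -0.07, 95% intervals -0.27 to 0.09 and -0.26 to 0.13).

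The balance between the copies was almost constant. Of the pair's transcript abundance, cdc-48.2 gave 38.6% ± 0.211 in wild type and 38.9% ± 1.01 in atf-6 (SD, n = 4), with atf-6 replicate 2 highest at 40.4%. Reads that the 2 copies share were divided by the quantification, so the sum is the safer value. It was 1747 ± 117 CPM in N2 and 1655 ± 130.5 CPM in atf-6 (SD, n = 4), with overlapping groups.

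The cofactors that bring ubiquitinated substrates to this ATPase are ufd-1, npl-4.1 and npl-4.2. ufd-1 (chromosome IV, 12329408 to 12330890, minus strand) measured 131, 125, 123 and 125 CPM in N2 and 114, 119.7, 119.8 and 122 CPM in atf-6. The groups did not overlap, but the highest atf-6 and the lowest wild-type library were close. The means were 126 ± 3.52 and 119 ± 3.31 CPM (SD, n = 4), a log2 fold change of -0.08 with an SE of 0.0513 (edgeR adjusted p = 0.861). npl-4.2 and npl-4.1 lie in tandem on chromosome II (5622889 to 5624959 and 5631351 to 5633284, both plus strand), 6391 bases apart.

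npl-4.1 was at 123, 112, 103 and 118 CPM in N2 and 113, 99.6, 119.9 and 107 CPM in atf-6. npl-4.2 was at 95.2, 103, 100.4 and 99.2 CPM in N2 and 92.3, 104, 95.8 and 102 CPM in atf-6. Both overlapped between strains, with log2 fold changes of -0.05 and -0.01. npl-4.2 gave 45.0% ± 2.46 of the pair's abundance in wild type and 45.7% ± 3.17 in atf-6 (SD, n = 4). The pair summed to 214 ± 6.70 and 208 ± 5.39 CPM.

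The membrane ligase components were at lower levels per length than cdc-48.1 and cdc-48.2, but not all were below the cofactors. The ligase gene sel-11 (the Hrd1 homolog) and its partner sel-1 (the homolog of yeast Hrd3) each spanned less than 1.25-fold over the libraries, with log2 fold changes of -0.05 for both. cup-2, a worm Derlin, had a log2 fold change of 0.02 and 145 CPM per kilobase. hrdl-1, a second Hrd1-like ligase, had the lowest level per length of the step at 59.0 CPM per kilobase. It was at 108.5, 98.5, 93.3 and 103 CPM in N2 and 90.2, 95.9, 124 and 101 CPM in atf-6. Replicates 3 and 1 of atf-6 were the highest and the lowest of the 8, and the log2 fold change was 0.03 (95% interval -0.18 to 0.24).

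COPII genes spanned a wide range of levels. The GTPase sar-1, which starts coat assembly, was highest at 236 CPM per kilobase. It was at 165, 165, 180.3 and 173 CPM in N2 and 171, 167, 172 and 169 CPM in atf-6, with the atf-6 values all inside the wild-type range (log2 fold change -0.01, 95% interval -0.12 to 0.11). Its exchange factor sec-12 and the inner coat subunit sec-23 had 54.4 and 78.5 CPM per kilobase and log2 fold changes of -0.02 and -0.04.

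Of the cargo-binding subunits, sec-24.1 was at 230.4, 241, 235.123 and 235.5 CPM in N2 and 235.2, 229, 214 and 236 CPM in atf-6. sec-24.2 was at 103, 106, 98.7 and 111 CPM in N2 and 103, 99.8, 109 and 114 CPM in atf-6, and at 35.5 CPM per kilobase it was the lowest COPII gene. The groups overlapped for both (log2 fold changes -0.04 and 0.02). sec-24.2 gave 33.5% ± 1.08 of the pair's abundance in wild type and 34.5% ± 1.71 in atf-6 (SD, n = 4).

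tfg-1, which acts with the ER exit site scaffold, was the COPII member that varied most. It was at 159.9, 172, 224 and 177 CPM in N2 and 207, 181, 147 and 166 CPM in atf-6. Its highest and lowest libraries were those of the neighbouring pair's trap-3, wild-type replicate 3 and atf-6 replicate 3. The log2 fold change was -0.07 (95% interval -0.33 to 0.20).

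The COPI coat varied least among the steps with several tested genes. Of its 7 subunits, copa-1, copb-1, copb-2, copd-1, cope-1 and copg-1 (alpha, beta, beta-prime, delta, epsilon and gamma) lay between 69.2 and 92.1 CPM per kilobase. copz-1 (zeta), the shortest, was at 186. All 7 ranged over the 8 libraries by 1.04-fold to 1.21-fold. Their log2 fold changes ran from -0.06 to 0.02, with the lowest 95% bound at -0.18 and the highest at 0.17.

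copz-1 was at 90.8, 87.5, 86.4 and 82.1 CPM in N2 and 77.9, 85.2, 85.3 and 87.0 CPM in atf-6. cope-1, the lowest per length, was at 56.0, 59.0, 55.5 and 59.3 CPM in N2 and 54.8, 55.1, 58.9 and 64.1 CPM in atf-6. Both overlapped between strains.

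copd-1 (delta subunit; chromosome III, 6622700 to 6624972, minus strand) was the steadiest member. It was at 137, 138, 134 and 139 CPM in N2 and 136, 135, 139 and 138 CPM in atf-6. Its SD of 0.0202 on the log2 scale was the second smallest of all 12375 tested genes, with 1 gene below it. The 95% interval of its log2 fold change was -0.11 to 0.10. The median SD on this scale was 0.0883 for the tested members, 0.110 for tested genes at member levels and 0.168 for all tested genes. copd-1 was singled out after its values were seen.

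Splicing gave a readout that the gene totals do not show. For 8 members a second transcript made up at least 10% of the gene's abundance in TPM (length-scaled transcript abundance). In copg-1, npl-4.1 and npl-4.2 the 2 leading transcripts differ by the same kind of event, a choice between splice acceptors 6 bases apart that adds or removes 2 codons. In copg-1 (chromosome IV) the acceptors put the start of coding exon 2 at 10153118 (isoform d) or 10153124 (isoform a). In npl-4.1 and npl-4.2 (chromosome II) coding exon 5 starts at 5633044 or 5633050 and at 5624563 or 5624569, with isoform b using the upstream site in both.

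In copg-1 the shares did not overlap between the strains. Isoform d made up 53.4%, 61.6%, 53.6% and 55.5% of the gene in wild type and 67.9%, 64.2%, 64.2% and 67.8% in atf-6. All atf-6 libraries were above all wild-type ones, with means of 56.0% ± 3.82 and 66.0% ± 2.096 (SD, n = 4). Such separation of the leading isoform's share occurred for 1.96% of the 2902 genes with a value in every library. Across 2937 genes with a second transcript, the log2 ratio of isoform d to a was 0.65 higher in atf-6 (SE 0.200), which did not pass limma's test (unadjusted p = 0.0122, adjusted p = 0.999). The test called 0.034% of these genes, and 3.37% had an unadjusted p under 0.05. It was chosen after the shares were seen. The sperm gene sum separated the strains in the same libraries, and its part in the shares was not tested. The copg-1 total did not differ beyond its spread (log2 fold change -0.03, 95% interval -0.18 to 0.12).

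The npl-4 genes gave overlapping shares. Isoform b of npl-4.1 made up 65.7%, 66.2%, 41.0% and 58.3% in wild type and 59.5%, 55.4%, 44.3% and 53.4% in atf-6, with replicate 3 lowest in each strain. Isoform b of npl-4.2 made up 29.8%, 29.1%, 47.2% and 42.4% in wild type and 36.8%, 33.8%, 27.5% and 33.7% in atf-6. The upstream site was thus the major one in npl-4.1 in 6 of 8 libraries and a minor one in npl-4.2 in all 8.

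**Figure D5:**
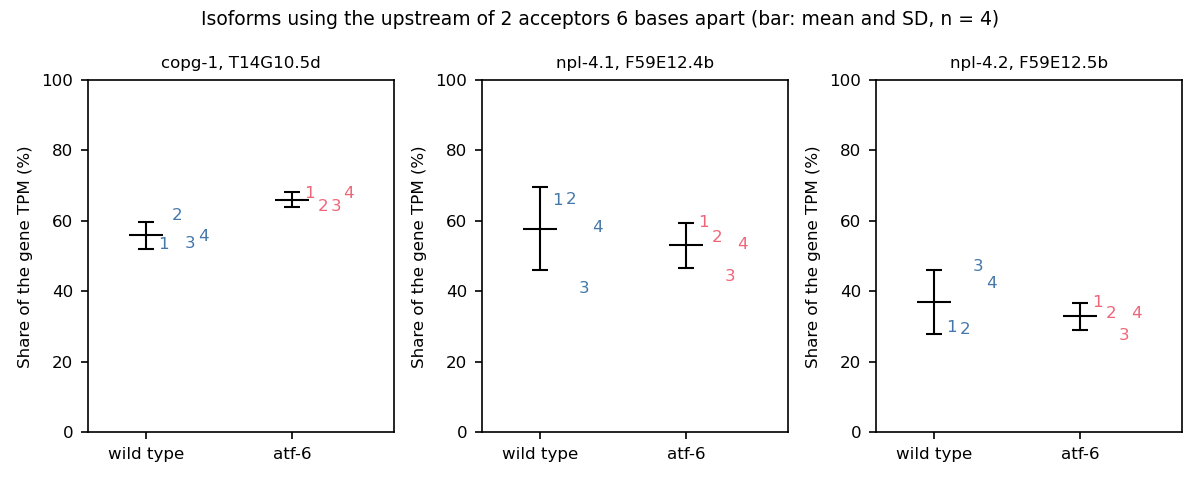
Share of the gene's TPM (%, y axes 0 to 100) from the isoform that uses the upstream of the 2 acceptors, by library (digits are replicate numbers) with the mean and SD (n = 4). The copg-1 shares run from 53.4 to 61.6 in wild type and from 64.2 to 67.9 in atf-6, while the npl-4.1 and npl-4.2 shares overlap.

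The remaining isoform shares varied widely among libraries of a strain. The shorter copb-1 transcript ranged from 0.803% to 50.9% in wild type and from 2.29% to 19.9% in atf-6. The longer copa-1 transcript ranged from 34.3% to 43.1% in wild type and from 16.9% to 63.2% in atf-6. stt-3, ufd-1 and sec-61.A also overlapped. In ufd-1, isoform b was 11.9% in wild-type replicate 3 and 44.6% in wild-type replicate 1. The division of reads among overlapping transcripts is an estimate, and its error was not used here.

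Other genes of the same pathway were counted from lists of 77 entries, of which 67 had a row and 66 were tested. By edgeR 0 were again higher and 0 lower, and 1 of them had an unadjusted p under 0.05, against the 7% of all tested genes. That gene was sec-20, a SNARE of Golgi-to-ER transport, at 36.4 ± 3.45 CPM in N2 and 31.7 ± 1.82 CPM in atf-6 (SD, n = 4). Its log2 fold change was -0.20 with an SE of 0.0824 (edgeR adjusted p = 0.634). The median log2 fold changes were -0.04 for 11 other translocation genes, 0.05 for 14 glycosylation genes, -0.07 for 11 ERAD genes, less than 0.01 in size for 17 ER-to-Golgi genes and -0.02 for 13 Golgi-to-ER genes.

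Groups did not overlap for 2 of these 66 genes, both lower in atf-6, against the 2.02% of all tested genes in this direction. algn-1, a mannosyltransferase that builds the sugar chain for OST, was at 46.6 ± 0.660 and 43.1 ± 0.587 CPM (SD, n = 4; log2 fold change -0.11, edgeR adjusted p = 0.757). ubql-1, a ubiquilin of ERAD, was at 180.1 ± 3.45 and 169.6 ± 5.02 CPM (log2 fold change -0.09, edgeR adjusted p = 0.856). The ERAD ligase rnf-5 and the membrane insertase subunits emc-3 and emc-2 had log2 fold changes of -0.13, -0.10 and -0.10. Of the other genes with the smallest p in their list, algn-10 was at 0.21, cogc-8 at -0.07, and the COPII coat genes npp-20 and sec-31 at -0.05 each on this scale. None of these passed, with edgeR adjusted p from 0.757 to 0.933.

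By position, the 39 genes were spread over all 6 chromosomes, with 2 (trap-2 and uggt-1) on the X. Of the 39, 9 overlap a protein-coding gene, always on the other strand, among them copd-1, sec-23 and cdc-48.2. With the strand setting of the quantification unknown here, reads from these partners could enter their values.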

How the data were processed

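Poly(A) RNA of whole worms was sequenced from stranded TruSeq libraries over 75 cycles, per the labels' protocols. The authors deposited estimated counts per gene in whole numbers, not scaled for library size, and per-sample files with estimated counts and TPM per transcript, per the file headers. Build WBcel235 and the tools STAR 2.5.3a, Salmon 0.9.1 and DESeq2 1.19.51 come, without their roles, from the submitters' processing notes. Table columns were tied to samples through the library number of each sample's own file. Names came from a gene name table and positions from the Ensembl annotation of WBcel235.

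The test was that of edgeR 4.0.16 under R 4.3.3 (genes kept by filterByExpr, TMM scaling, robust quasi-likelihood fit with strain as factor, two-sided, Benjamini-Hochberg over 12375 genes, threshold 0.05), which was also tested on simulated data. CPM use TMM-adjusted library sizes. SE is the absolute log2 fold change over the square root of F. Deviations used log2(CPM + 0.5). Isoform ratios used log2(TPM + 0.5) and limma 3.58.1. Intervals cover the spread between libraries, which the labels call independent replicates. Raw TPM were not compared between libraries. Sequences were not used here. DESeq2 1.42.0, limma-voom, sva 3.50.0 and other settings were alternatives.

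Values per library are given for members whose groups do not overlap or that reached an unadjusted p under 0.05 in a fit, for the highest and lowest level per length of each step (in CPM per kilobase, in place of TPM), and for gene pairs. sec-61.B, trap-3, tfg-1, copd-1 and the copg-1 isoforms were added after their values were seen. Members and lists were chosen with earlier results of these data known.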

Additional observations from a re-analysis of the deposited data

Results flagged for a closer look

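These 4 values stood far from the other 3 libraries of their strain, by a criterion that chance meets in about 1 in 20 groups, with 78 groups examined. sec-61.G in wild-type replicate 1 was at 313 CPM, below the nearest value of 342. spcs-2 in wild-type replicate 3 was at 112 CPM, above 98.4. sel-1 in atf-6 replicate 3 was at 156 CPM, below 163. ufd-1 in wild-type replicate 1 was at 131 CPM, above 125. None of these was tested further.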

How the results depend on the processing

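The count of members past the threshold stayed at 0 in each direction in the main fit and under all 18 alternatives. Members at an unadjusted p under 0.05, 0 in the main fit, were 1 with DESeq2 (ribo-1; 4.31% of all genes), 4 with 1 surrogate variable (ribo-1, ufd-1, spcs-1 and trap-2; 14.9% of all genes), 3 without both libraries numbered 3 (chosen after seeing the data; 8.56% of all genes) and 0 to 1 when 1 library was left out. For the fits with 1 library left out, the share of all genes at this unadjusted p was not counted. The sign of the log2 fold change was the same in all fits for 13 members and changed in at least 1 fit for 25. Over all genes, 88 were higher and 13 lower in the main fit. The counts were 163 and 31 with DESeq2, 266 and 62 with 1 surrogate variable, 30 and 9 with plain sums of transcript reads, and 116 and 20 without a filter on low counts. They ran from 12 to 92 higher and from 4 to 15 lower when 1 library was left out. The cause of these differences was not tested.

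With the replicate number as a block, 0 members passed, and 3 genes were higher and 1 lower over all genes. The replicate numbers mark no shared batch in the labels. Same-numbered libraries had correlations of their deviations of -0.469, -0.0580, -0.475 and 0.0831. Among the other pairings, wild-type replicate 3 with atf-6 replicate 1 had 0.540. Whether same-numbered libraries shared any handling was not tested. The copg-1 isoform ratio was 0.52 with a pseudocount of 5 TPM and 0.59 to 0.76 with 1 library left out, with an adjusted p of at least 0.977. Over all genes the median log2 fold change was 0.00191 with TMM, -0.00923 with RLE and 0.0279 with upper-quartile scaling. With 4 libraries a strain, the intervals of 36 of 38 members leave room for changes below 1.25-fold.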
